A study of Homo sapiens with 6 samples.

Results

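The miR-181 family was examined in HuH7 cells, a human liver cancer line, after 24 h with 1 µg/ml cisplatin (3 arrays) and in untreated HuH7 cells kept for the same time (3 arrays). Cisplatin is a platinum drug that crosslinks DNA. Members were all array probes whose name, without the species prefix, starts with miR-181a, miR-181b, miR-181c or miR-181d, and 8 of the 2019 human miRNA probes met this rule. Total RNA was labelled with Hy5 and hybridised to 1-colour arrays, with 1 spot for each human probe. Samples are numbered 1 to 3 within each group, and no label says whether they are separate cultures. The p-values therefore reflect the spread among these samples alone, and it may be technical. HuH7 is a single cell line, and the number of arrays limits the precision.

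A miRNA is cut from a hairpin as 2 arms. One of them, for miR-181 usually the 5p arm, guides Argonaute to messenger RNAs that pair with its seed, bases 2 to 8. The miR-181 family is best known for tuning receptor signalling in developing lymphocytes. In the liver it is known as a set of miRNAs induced by TGF-beta and abundant in EpCAM-positive liver cancer cells, where its targets include the differentiation factors CDX2 and GATA6, the Wnt pathway inhibitor NLK and the protease inhibitor TIMP3. The anti-apoptotic gene BCL2 is another described target, which ties the family to work on cisplatin sensitivity in other cancer cell lines.

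The family derives from 6 hairpins in 3 pairs. In GRCh38.p14, MIR181B1 (chr1:198858873-198858982) and MIR181A1 (chr1:198859044-198859153) lie on the minus strand of chromosome 1, within the span of the long noncoding gene MIR181A1HG. MIR181A2 (chr9:124692442-124692551) and MIR181B2 lie on the plus strand of chromosome 9, within the spans of MIR181A2HG and of the protein-coding gene NR6A1. MIR181C (chr19:13874699-13874808) and MIR181D (chr19:13874875-13875011) lie on the plus strand of chromosome 19, within the span of NANOS3. The 5p arms of a pair start 183, 1245 and 185 bases apart on chromosomes 1, 9 and 19.

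The 4 mature 5p arms are shown first because they carry the shared seed, given in capitals. They are followed by miR-4262, which was the 1 other miRNA with this seed among the array names matched to RefSeq. All sequences are those of RefSeq (GRCh38.p14), in which all 8 members and 1699 of the 2019 array probes had a mature entry.
hsa-miR-181a-5p: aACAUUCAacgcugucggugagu
hsa-miR-181b-5p: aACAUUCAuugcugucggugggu
hsa-miR-181c-5p: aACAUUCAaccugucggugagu
hsa-miR-181d-5p: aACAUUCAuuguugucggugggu
hsa-miR-4262: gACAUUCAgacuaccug
The array names miR-181d (MIMAT0002821) without an arm, and it is taken here as the 5p arm. Counted from 1 at the 5′ end, miR-181a-5p and miR-181b-5p differ by A9U, C10U and A21G, and miR-181b-5p and miR-181d by C12U alone. Removing 1 base from miR-181a-5p gives miR-181c-5p. How far a probe for 1 of these sequences also binds the others was not tested, and the probe sequences were not used here.

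The 3p arms are shown because, unlike the 5p arms of miR-181a and miR-181b, they tell the genomic copies apart, and because their seeds (capitals) differ from each other.
hsa-miR-181a-3p: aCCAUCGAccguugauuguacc
hsa-miR-181a-2-3p: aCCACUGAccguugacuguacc
hsa-miR-181b-3p: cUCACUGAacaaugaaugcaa
hsa-miR-181c-3p: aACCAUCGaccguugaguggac
The mature miR-181a-5p has the same sequence in MIR181A1 on chromosome 1 and MIR181A2 on chromosome 9. miR-181a-3p comes from MIR181A1 only and miR-181a-2-3p from MIR181A2 only, and they differ by C5U, U6C and C16U, counted from miR-181a-2-3p to miR-181a-3p. The 2 hairpins are given with both arms in capitals.
MIR181A1: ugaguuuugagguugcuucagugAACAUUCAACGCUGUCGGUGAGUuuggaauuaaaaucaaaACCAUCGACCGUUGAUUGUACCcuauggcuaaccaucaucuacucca
MIR181A2: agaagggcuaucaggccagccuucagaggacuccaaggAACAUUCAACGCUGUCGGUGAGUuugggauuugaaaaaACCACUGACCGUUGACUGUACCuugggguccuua

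Cisplatin arrays had 713, 329 and 643 human probes above the blank-spot limit, and control arrays 703, 500 and 738. This limit lies 2 SD above the mean of an array's 925 blank spots, and a probe above it is called detected. The limit was highest on cisplatin replicate 2. All 5 hepatocyte markers examined, among them miR-122-5p and miR-192-5p, were detected on all 6 arrays. Of 6 blood cell markers none was detected on all arrays of a group. miR-451a and miR-142-3p were each detected on 2 cisplatin and 2 control arrays, and miR-150-5p on 2 and 1. miR-144-3p was detected on 1 cisplatin and 1 control array, miR-223-3p on 1 control array, and miR-142-5p on no array. Of 6 endothelial and stromal markers 3 were detected on all 6 arrays (miR-126-3p, miR-143-3p and miR-145-5p), and miR-1 and the probe shared by miR-199a-3p and miR-199b-3p on none.

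The study set out to find miRNAs associated with the drug's effect on these cells, and the comparison here is of the family with and without cisplatin. In HuH7 cells 2 of the 8 miR-181 probes, miR-181a-5p and miR-181b-5p, were detected on all 6 arrays, and neither differed between cisplatin and control beyond the spread between arrays. The 3p arm miR-181a-2-3p was detected on 3 of 3 cisplatin and 2 of 3 control arrays and did not pass either. The remaining 5 members were detected on 0 to 4 of the 6 arrays, never on all 3 of a group, and were not tested. In the fit over all 324 tested probes, which needs detection on all 3 arrays of at least 1 group, 0 of 3 miR-181 probes passed (limma, Benjamini-Hochberg adjusted p under 0.05), against 1 of all 324, or 0.309%. With the replicate numbers as a block 0 of 324 passed. At an unadjusted p under 0.05 there were 0 of 3, against 15.7% of all tested probes.

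**Figure D1:**
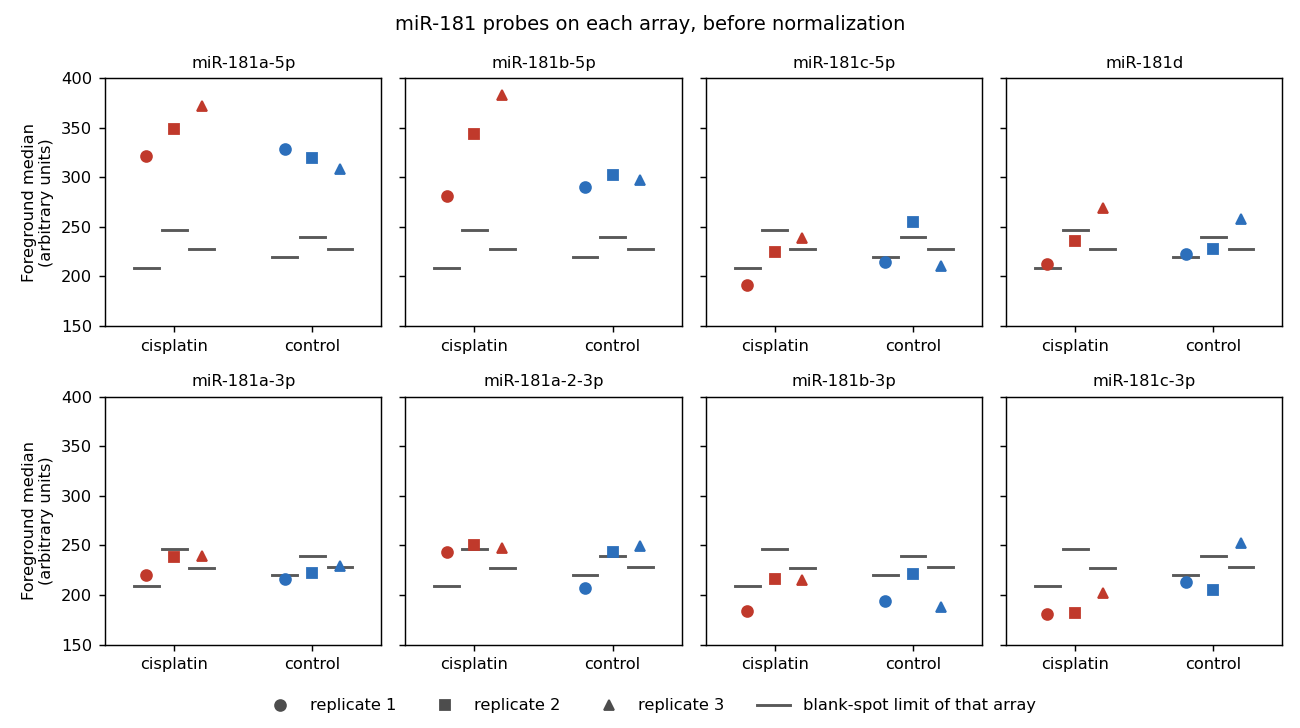
Foreground median of each miR-181 probe in arbitrary units, by array, with cisplatin on the left and control on the right of each panel. Each marker is 1 array, its shape gives the replicate number, and the grey bar is the blank-spot limit of that array. miR-181a-5p and miR-181b-5p lie above the bar on all 6 arrays, and miR-181b-3p on none.

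hsa-miR-181a-5p, the best studied arm of the family, had foreground medians of 322, 349 and 372 on cisplatin arrays 1, 2 and 3, and of 329, 320 and 309 on control arrays 1, 2 and 3. Local background was 139, 164 and 148 on the cisplatin arrays and 143, 167 and 155 on the control arrays. Cisplatin arrays 2 and 3 lay above every control array and cisplatin array 1 lay among them, so the groups overlapped. After normexp background correction and quantile normalization the log2 values were 7.83, 7.62 and 7.90 with cisplatin and 7.92, 7.63 and 7.60 in control. The means were 7.78 ± 0.15 and 7.72 ± 0.18 (SD, n = 3 each), and the fold change, cisplatin over control, was 0.065 on the log2 scale (SE 0.12, limma adjusted p = 0.867). The 95% interval ran from -0.24 to 0.37 on the log2 scale. At most 1 of the 925 blank spots was as bright on any array.

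hsa-miR-181b-5p shares the seed and lies in the same pairs of hairpins. Its foreground was 281, 344 and 383 on cisplatin arrays 1, 2 and 3 and 290, 302 and 297 on control arrays 1, 2 and 3. The cisplatin arrays spanned the control arrays, with array 1 below all of them and arrays 2 and 3 above all of them. The log2 values were 7.53, 7.60 and 7.97 with cisplatin and 7.62, 7.51 and 7.49 in control, with means of 7.70 ± 0.23 and 7.54 ± 0.068 (SD, n = 3 each). Cisplatin minus control gave 0.16 on the log2 scale (SE 0.13, limma adjusted p = 0.663), with a 95% interval from -0.16 to 0.48. The value rested largely on cisplatin replicate 3, and without that array miR-181b-5p stood at 0.030 (limma adjusted p = 0.965).

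Both 5p arms had their highest raw foreground on cisplatin replicate 3. On the log2 scale this held for miR-181b-5p, while miR-181a-5p was highest on control replicate 1 (7.92, against 7.90 on cisplatin replicate 3). Without cisplatin replicate 3 the log2 fold change of miR-181a-5p was 0.0039 (limma adjusted p = 1), and it was 0.0051 without control replicate 3, 0.022 without control replicate 2 and 0.16 without control replicate 1. By same-numbered pairs, cisplatin minus control, miR-181a-5p stood at -0.094, -0.015 and 0.30 on the log2 scale for numbers 1, 2 and 3. miR-181b-5p stood at -0.090, 0.093 and 0.48. The third pair thus had the highest difference for both probes, and the first pair was negative for both. The arrays also carry a cell number from 1 to 4 in their scanner files. Controls held cells 1 and 3 and cisplatin samples cells 2 and 4, so cell number and group cannot be told apart. Within cells 1 and 2 (replicate 2 of each group) the difference was -0.015 for miR-181a-5p and 0.093 for miR-181b-5p, and within cells 3 and 4 it was 0.10 and 0.19.

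hsa-miR-181c-5p, from the chromosome 19 pair, was detected on 1 cisplatin and 1 control array and was not tested. Its foreground was 191, 225 and 239 on cisplatin arrays 1, 2 and 3 and 211 to 255 on control arrays, with overlap. Of the 925 blank spots, 270, 116 and 4 were at least as bright as the probe on cisplatin arrays 1, 2 and 3, and 45, 1 and 317 on control arrays 1, 2 and 3. On 4 of the 6 arrays the probe thus lay under the limit, with at least 45 blank spots as bright. The log2 values averaged 6.68 ± 0.23 with cisplatin and 6.75 ± 0.24 in control (SD, n = 3 each), a difference of -0.066 that is smaller than either spread.

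hsa-miR-181d was detected on 2 cisplatin and 2 control arrays and was likewise not tested. Foreground values were 213, 236 and 269 on cisplatin arrays 1, 2 and 3 and 223, 228 and 258 on control arrays 1, 2 and 3. The groups overlapped, and array 3 was the brightest in both. On the log2 scale the difference was 0.11, from means of 7.06 ± 0.15 and 6.95 ± 0.12 in cisplatin and control (SD, n = 3 each). It was positive in all 3 same-numbered pairs (0.072, 0.12 and 0.14). Over all 2019 human probes 13.3% were higher in the cisplatin array of all 3 pairs, and 2 of the 8 members were, the other being miR-181a-3p.

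The 3p arms are usually degraded after the hairpin is opened, and none of the 4 was detected on all 6 arrays. miR-181a-2-3p, the arm made from the chromosome 9 copy alone, had foreground medians of 243, 250 and 247 on cisplatin arrays 1, 2 and 3 and of 207, 243 and 249 on control arrays 1, 2 and 3. Control replicate 1 stood apart below the other 5 arrays, which lay close together. The log2 means were 6.91 ± 0.089 with cisplatin and 6.63 ± 0.24 in control (SD, n = 3 each). Their difference of 0.28 on the log2 scale (SE 0.13, limma adjusted p = 0.390) had a 95% interval from -0.047 to 0.62. Without control replicate 1 it was 0.16 (adjusted p = 0.502). This probe entered the test through the cisplatin arrays only, so a positive value was favoured by the filter.

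hsa-miR-181a-3p, the corresponding arm of the chromosome 1 copy, was detected on 2 cisplatin arrays and 1 control array and was not tested. Its foreground was 220, 238 and 239 on cisplatin arrays 1, 2 and 3, against 216, 222 and 229 on control arrays 1, 2 and 3. The raw groups overlapped. The log2 values were 6.80, 6.68 and 6.72 with cisplatin, each above the control values of 6.45, 6.43 and 6.64, and the difference was 0.23. Such a separation upward was seen in 1 of the 8 members and in 5.6% of all 2019 human probes. When the blank limit was taken from blank spots with 5% trimmed at each end, miR-181a-3p and miR-181d joined the test. miR-181a-3p then had an unadjusted p of 0.0302 (limma adjusted p = 0.280). Both probes entered through the cisplatin arrays only, so a positive value was favoured by the filter there too.

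miR-181b-3p was detected on no array. Its foreground ranged from 184 to 216 on cisplatin and from 188 to 221 on control arrays, and at least 160 of the 925 blank spots were as bright on each array. miR-181c-3p was detected on control replicate 3 alone. Its foreground was 181, 182 and 202 on cisplatin arrays 1, 2 and 3 and 213, 205 and 252 on control arrays 1, 2 and 3. The raw groups did not overlap, with cisplatin lower, as was so for 4.56% of all 2019 human probes. On the cisplatin arrays 553, 917 and 570 of 925 blank spots were at least as bright, so the probe lay at the level of the blanks there. It was lower in the cisplatin array of all 3 same-numbered pairs, as 13.8% of all human probes were. The log2 values overlapped, and the difference of -0.47 is between values at the blank level with cisplatin and values of which 1 was above the limit in control.

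**Figure D2:**
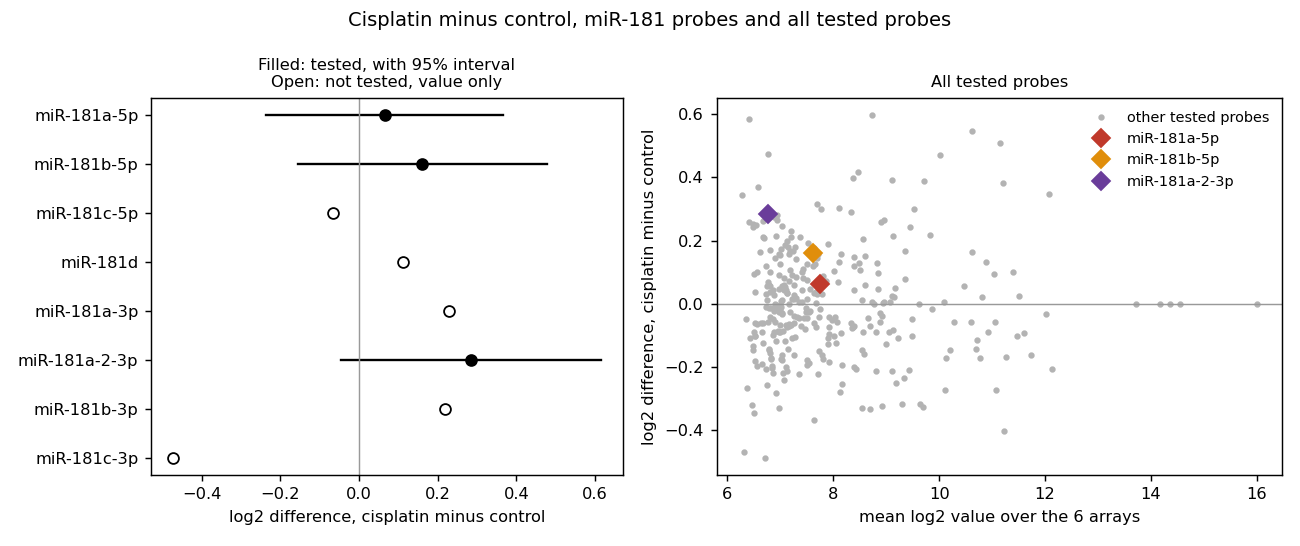
Left, log2 difference between cisplatin and control arrays for the 8 miR-181 probes, with filled points for the 3 tested probes and their 95% limma intervals and open points for the 5 untested ones. Right, the log2 difference of all 324 tested probes against their mean log2 value, with the 3 tested miR-181 probes as diamonds, all inside the cloud. The 3 intervals include 0.

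Over all 8 members, tested or not, 6 differences were positive, against 48.5% of all 2019 human probes. The sign of miR-181c-5p, negative here, turned when 1 array was left out (0.068 without control replicate 2 and 0.059 without cisplatin replicate 1). No member had log2 values that were lower on every cisplatin array (4.95% of all human probes), and none had raw foreground that was higher on every cisplatin array (2.03%). The 2 tested 5p probes, detected on all 6 arrays, had a median log2 fold change of 0.11, while the median of all tested probes was -0.012 and 46.3% of them were positive. By log2 fold change from the highest, miR-181b-5p ranked 56 and miR-181a-5p 100 of 324. The within-array difference of miR-181a-5p minus miR-181b-5p was 0.083 ± 0.19 with cisplatin and 0.18 ± 0.11 in control on the log2 scale (SD, n = 3 each), and the groups overlapped. With 3 arrays against 3 the exact permutation test cannot give a two-sided p under 0.1, so whether the members changed unequally could not be decided by it.

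**Figure D3:**
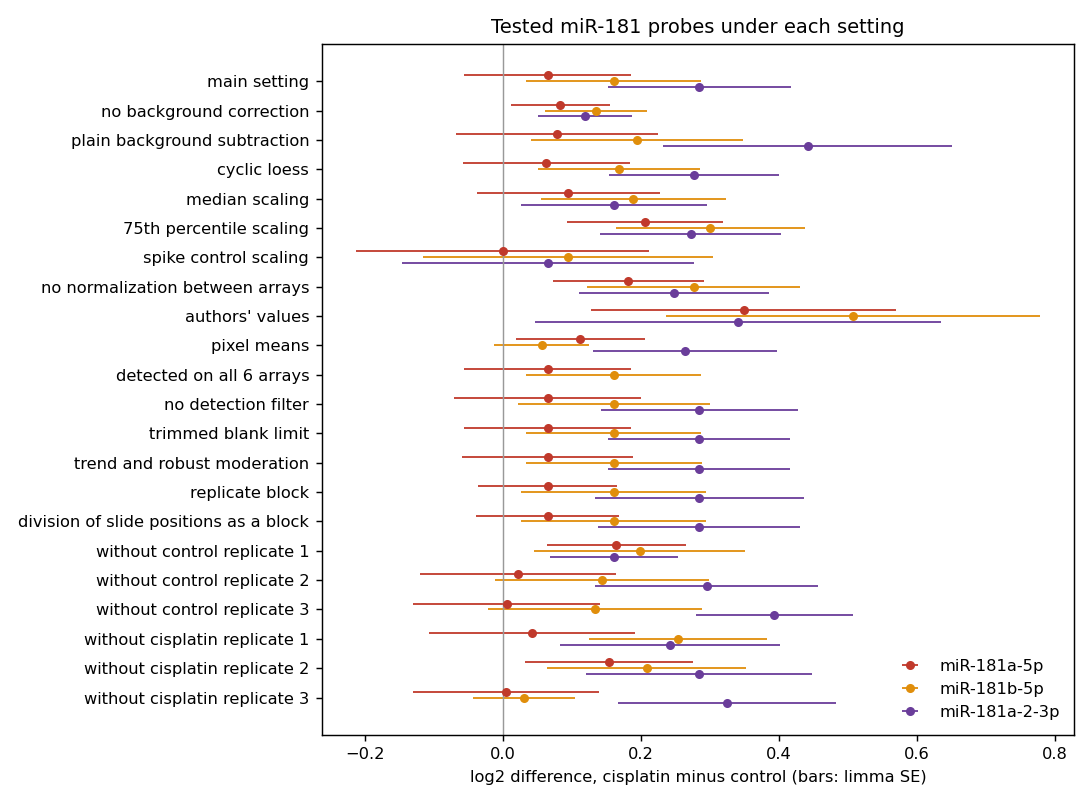
Log2 difference between cisplatin and control arrays for the 3 tested miR-181 probes under the main setting and 21 alternatives, with bars for the limma SE. A probe that is not tested under a setting has no point there. miR-181b-5p and miR-181a-2-3p stay above 0 throughout. miR-181a-5p touches 0 with scaling to spike control spots (-7.2e-04) and lies close to 0 without cisplatin replicate 3 or control replicate 3.

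miR-4262, the other miRNA with the 5p seed, was not detected on any array. Its foreground was 173, 207 and 226 on cisplatin arrays 1, 2 and 3 and 161, 213 and 217 on control arrays 1, 2 and 3. With 33 to 764 blank spots as bright on cisplatin arrays and 167 to 921 on control arrays, it stayed under the limit throughout. Among the 5 miRNAs with this seed, signal on all 6 arrays was thus seen for miR-181a-5p and miR-181b-5p.

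The profile of miR-181a-5p over the 6 arrays was compared with that of every other tested probe by the root mean square difference of log2 values, each centred on its own mean. The 5 most alike were miR-210 (0.0588), the hypoxia-induced miRNA, then miR-652-3p (0.0670), miR-200a-3p (0.0844), a guard of the epithelial state, miR-425-3p (0.0853) and miR-100-5p (0.0858). The median over the 323 other probes was 0.192. miR-181b-5p ranked 44 at 0.137 and miR-181a-2-3p ranked 280 at 0.284. A probe with the same value on every array would stand at 0.138, so miR-181b-5p was about as far away as a flat profile. By this measure miR-181a-5p and miR-181a-2-3p had unlike profiles. The lowest value of miR-181a-2-3p (6.37) was on control replicate 1, where it was undetected and 169 blank spots were at least as bright. The 5 alike probes had log2 fold changes of 0.012, -0.021, 0.091, 0.13 and -0.028 in the order given, and none passed. Arrays share their depth and blank level across probes, so likeness describes these 6 arrays only.

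**Figure D4:**
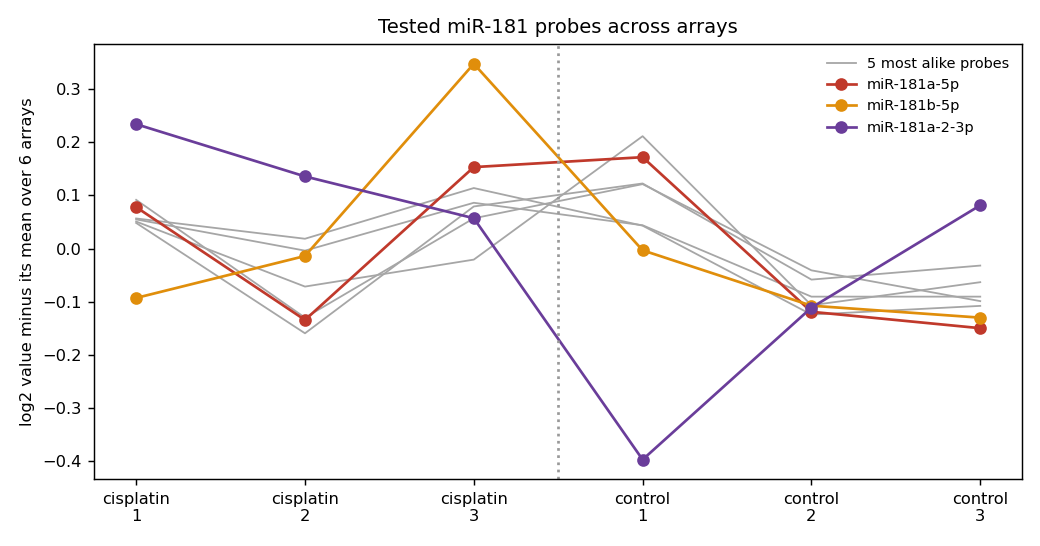
Log2 value of each probe minus its mean over the 6 arrays, with the cisplatin arrays left and the control arrays right of the dotted line. Red is miR-181a-5p, orange miR-181b-5p and purple miR-181a-2-3p, and grey lines are the 5 probes most like miR-181a-5p. miR-181b-5p is highest on cisplatin replicate 3, miR-181a-2-3p is lowest on control replicate 1, and lines only join the values of 1 probe.

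The nearest tested probes in brightness served to show what probes of like signal did. Around miR-181a-5p, miR-4463 stood at 0.30 on the log2 scale (SE 0.11, limma adjusted p = 0.303) and miR-551b-3p at -0.018. Around miR-181b-5p, miR-22-5p stood at 0.12 and miR-3197 at -0.021. Around miR-181a-2-3p, miR-1471 stood at -0.057 and miR-5585-3p at 0.071. The SE of these 6 ran from 0.051 to 0.14, and none passed.

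The family was set beside other miRNAs that TGF-beta is known to affect. Of 11 on this list 10 were tested and 0 passed in either direction, with 7 positive and 3 negative values and a median of 0.24 on the log2 scale. With other scalings members of the list did pass, miR-23a-3p with cyclic loess (limma adjusted p = 0.0273), median scaling (0.0155) and the 75th percentile (0.0414), and miR-27a-3p with median scaling (0.0445). The list was chosen with earlier results of these data known. Of the 10, 1 (miR-155-5p) had every cisplatin array below every control array, against 10.2% of all tested probes. The untested miR-200c-3p (-0.23) was lower in the same way. Another 5 of the 10 had every cisplatin array above every control array, against 8.64% of all tested probes. These were miR-27a-3p (0.60, SE 0.14, limma adjusted p = 0.129), miR-23a-3p (0.55), miR-24-3p (0.39), miR-21-5p (0.38), a miRNA raised in most carcinomas, and miR-182-5p (0.30). miR-216a-5p (0.14), miR-200b-3p (0.17), miR-217 (-0.085) and miR-192-5p (-0.058) had overlapping groups, and the signs of miR-192-5p, miR-217 and miR-216a-5p turned under at least 1 other scaling or in the authors' values. miR-155-5p, an inflammation-linked miRNA, was detected on 0 of 3 cisplatin and 3 of 3 control arrays, so a negative value was favoured by the filter. Its log2 means were 6.46 with cisplatin and 6.95 in control, and it did not pass (limma adjusted p = 0.325). Cisplatin values below the lowest detected probe of their array were also raised to that level, for a mean of 6.53. With these raised values miR-155-5p was 1.34-fold lower with cisplatin on these arrays. That fold is no lower bound, because undetected probes can lie above 6.53, as miR-181d did on cisplatin replicate 2 (6.98). miR-181a-5p and miR-181b-5p, with log2 fold changes of 0.065 and 0.16 and overlapping groups, lay below the median of this list. The list does not separate its miRNAs by the direction of the TGF-beta effect, so its median is no measure of a response to TGF-beta.

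The miRNAs of the miR-17 to miR-92 cluster, described beside miR-181 in EpCAM-positive liver cancer cells, were all tested. All 6 had values below 0, their median log2 fold change was -0.27, and 0 passed. miR-20a-5p (-0.17), also named after its values were seen, was above 0 with the 75th percentile, without normalization, in the authors' values and without cisplatin replicate 1. Of the 6, 2 had every cisplatin array below every control array, against 10.2% of all tested probes. miR-17-5p stood at -0.16 (SE 0.18, limma adjusted p = 0.779) and miR-92a-3p at -0.21 (SE 0.077, adjusted p = 0.276). The lowest adjusted p of the 6 belonged to miR-19b-3p at -0.40 (SE 0.054, limma adjusted p = 0.0706), which was likewise named after its values were seen and had every cisplatin array below every control array. It passed without background correction (adjusted p = 0.0223), without cisplatin replicate 2 (0.0391) and with detection from pixel means (0.0119), and stood at -0.13 (adjusted p = 0.758) with the 75th percentile. The 2 tested miR-181 5p probes stood on the other side of 0 from these 6 in the setting used here, and the difference between the lists was not tested.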

How the data were processed

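Values were background-corrected and normalized from the deposited scanner files, which hold linear intensity (medians and means of the pixels of a spot and of its surroundings, per the file headers). Per the labels' protocols total RNA was labelled with Hy5. Which scanner software was used is not given in the sources used here. As an alternative served the authors' deposited value table. It equals the foreground median minus the 5% trimmed blank mean, scaled by 1 factor per array to a median intensity of 31 (largest residual 5.4e-06), and lists only probes more than 2 SD above that trimmed mean.

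Foreground and background medians were corrected with normexp (offset 50), which shrinks the differences of dim probes, taken to log2 and quantile-normalized across arrays using the 2019 human probes, all in limma 3.58.1 (R 4.3.3). A probe was tested where all 3 arrays of a group detected it, which left 324. The test was lmFit with eBayes (residual degrees of freedom 4, prior 1.52) and the adjustment Benjamini-Hochberg. The fit alone was tested on simulated normal log2 values of 324 probes. Background correction, normalization and the detection filter were not simulated. Where 40 probes were changed by 0.5 on the log2 scale, 57.6% of them were called, and 94.5% where the change was 1. Figures were drawn with matplotlib 3.10.9.

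The members and lists were chosen with earlier results of these data known. Text names follow a rule set with them, which takes all members, miRNAs sharing the 5p seed, tested probes of the TGF-beta list, 2 of the cluster list, the 5 most alike probes and the nearest tested probes in level. The marker miRNAs come from lists set at the same time. Same-numbered samples had correlated deviations (0.44, 0.24 and 0.20 over tested probes). The labels' numbers were used to form the pairs described above and as a block in an alternative fit. The main fit, which gave the SE, intervals and adjusted p of the main setting, was unpaired. Differently numbered samples ranged from -0.345 to 0.229, the highest being cisplatin replicate 2 with control replicate 3, so the pairing is not clear-cut. The fit with this block changed no call of a miR-181 probe.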

Additional observations from a re-analysis of the deposited data

How the results depend on the processing

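No miR-181 probe passed under any of the 21 alternatives. Over these the smallest limma adjusted p was 0.383 for miR-181a-5p, 0.327 for miR-181b-5p and 0.290 for miR-181a-2-3p. miR-181b-5p ranged from 0.030 to 0.51 and miR-181a-2-3p from 0.065 to 0.44 without a change of sign, where the replicate block, the block for cell numbers, moderation and the filter could not change these values. miR-181a-5p ranged from -7.2e-04 with spike control scaling to 0.35. The median of the tested 5p probes was 0.43 in the authors' values, where all tested probes shifted by 0.15 and 0.28 remains beyond that shift, and 0.017 to 0.18 when 1 array was left out. It is lowest without cisplatin replicate 3. The median of all tested probes also shifted by 0.11 with the 75th percentile, by 0.083 without normalization and by -0.10 with spike control scaling. Of the untested members, miR-181c-3p ranged from -1.41 with plain subtraction to -0.18 without background correction, which shows how far values at the blank level rest on that step, miR-181d was at -0.066 with spike control scaling, and miR-181c-5p lay between -0.17 and 0.068 with single arrays omitted.

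The number of probes that passed was 1, and 3 without background correction, 4 with cyclic loess, 4 with median scaling and 3 with the 75th percentile. It was 0 with spike control scaling, no normalization, the authors' values, pixel means, detection on all 6 arrays, no filter, trend and robust moderation and the replicate block (limma, 13, 33, 26, 39, 39, 97, 38 and 57 probes at an unadjusted p under 0.05), and 0 to 3 when 1 array was left out, with 3 without cisplatin replicate 2 and 0 without any other (42 to 57 at an unadjusted p under 0.05). These fits kept the 324 probes tested on all 6 arrays, and the fit on pixel means kept detection from pixel medians. Both rules were settled after first results were seen. Under the earlier rules, added as 7 further alternatives chosen after seeing the data, redoing the detection filter on the 5 remaining arrays left 333 to 460 probes and a count of 0 without any array, cisplatin replicate 2 included (limma, 47 to 85 at an unadjusted p under 0.05). Detection from pixel means left 109 probes and no miR-181 probe, and 4 passed. With the filter redone no miR-181 probe passed either, with a smallest adjusted p of 0.273 for miR-181a-2-3p without control replicate 3 and of 0.246 for miR-181a-3p, tested there without cisplatin replicate 2.

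The cause of these changes was not tested. Other named probes changed sign, most of them near 0. With median scaling these were miR-100-5p (0.076), miR-192-5p (0.28), miR-551b-3p (0.027) and miR-5585-3p (-0.016). With the 75th percentile they were miR-100-5p (0.19), miR-192-5p (0.39), miR-3197 (0.11), miR-551b-3p (0.14) and miR-20a-5p (0.058), and without normalization the same at 0.16, 0.36, 0.081, 0.11 and 0.033. With cyclic loess miR-192-5p stood at 0.12. With spike control scaling miR-192-5p stood at 0.18, miR-200a-3p at -0.025, miR-216a-5p at -0.040, miR-425-3p at -0.056 and miR-5585-3p at -0.11. With the authors' values miR-100-5p was 0.16, miR-1471 0.16, miR-192-5p 0.36, miR-217 0.022, miR-3197 0.20, miR-551b-3p 0.12 and miR-20a-5p 0.0073. Pixel means gave miR-100-5p 0.065, miR-3197 0.029, miR-5585-3p -0.013 and miR-652-3p 0.050, and no background correction gave miR-1471 0.020 and miR-5585-3p -0.031. When 1 array was left out, the signs of miR-20a-5p (-0.29 to 0.0034), miR-100-5p (-0.087 to 0.064), miR-192-5p (-0.087 to 0.0065), miR-210 (-0.031 to 0.082), miR-3197 (-0.14 to 0.068), miR-551b-3p (-0.098 to 0.070), miR-5585-3p (-0.022 to 0.20) and miR-652-3p (-0.067 to 0.056) turned.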
